A study of Mus musculus with 2 samples.

Results

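The genes Kcnj1, Kcnj10, Kcnj16 and Kcnj15 encode inwardly rectifying K+ channel subunits of the kidney tubule, and they are 4 of the 32227 genes counted in nuclei of the thick ascending limb (TAL) of the mouse. They were chosen by name, and their raw counts were read in 4 classes of TAL nuclei and in 2 libraries. A barcode was taken as a TAL nucleus when it held at least 10 counts of Slc12a1, the gene of the Na+-K+-2Cl- cotransporter NKCC2. Within these, macula densa (MD) nuclei had at least 3 counts of Nos1 and Pappa2 together, β nuclei at least 2 counts of Tmem52b, γ nuclei at least 2 counts of Tmem207 and Gpc5 together, and α nuclei were the rest, asked in that order. In the study, nuclei of NKCC2-expressing cells were tagged with GFP (INTACT: tamoxifen-induced NKCC2-CreERT2 with CAG-Sun1/sfGFP), sorted by fluorescence and sequenced as 1 PIPseq library from cortex and 1 from medulla. Both libraries carry the same labels: B6 strain, male, genotype WT, age 12 without a unit, kidney, and Slc12a1+ cells as the cell type. The cortex sample was a superficial strip, and everything below it went into the medulla sample, which thus holds deep cortex too. There was no treated group. The number of animals behind each library is not given in the sources used here, and nuclei of a library are not replicates.

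ROMK, encoded by Kcnj1, sits in the apical membrane and returns K+ to the lumen, which keeps NKCC2 supplied with its scarcest substrate. Kir4.1 (Kcnj10) and Kir5.1 (Kcnj16) combine into a heteromeric channel of the basolateral membrane, where Kir5.1 alone forms no working channel in most cells. Kir4.2 (Kcnj15) is a close relative of Kir4.1 that also pairs with Kir5.1 and is known as a basolateral channel subunit of the proximal tubule.

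The cortex library held 16457300 counts in 5442 barcodes (median 2427), of which 5218 (95.9%) passed the Slc12a1 minimum. The medulla library held 20947211 counts in 8121 barcodes (median 2430), of which 7967 (98.1%) passed. No barcode sequence was shared. In cortex the rule gave 2824 α, 1493 β, 248 γ and 653 MD nuclei, and in medulla 3776 α, 571 β, 3542 γ and 78 MD nuclei. With 1 library per region there is no replicate error and no test, and intervals are 95% counting intervals (exact Poisson for a level, exact binomial on the split of counts for a ratio, and Clopper-Pearson for a share of nuclei) that cover counting error only. Region and library cannot be told apart. Barcodes with at least 3 counts of the markers of another cell type made up 16.4% of α, 26.9% of β, 25.4% of γ and 9.19% of MD nuclei in cortex. In medulla they made up 2.15%, 4.73%, 2.65% and 1.28%. Values without these barcodes are given beside the results. The class names were compared with 2 claudin genes outside the rule. The study named its types by these claudins too, so this is no independent check. Without those barcodes, Cldn10 stood at 179 CPM (counts of the gene divided by all counts of the class, in parts per 1000000) in cortical α nuclei, 12.9 in β nuclei and 45.7 in γ nuclei, while Cldn16 stood at 116, 257 and 202. In medulla the γ nuclei had 204 CPM of Cldn10 and 57.1 CPM of Cldn16. The cortical γ class thus had Cldn16 near the β level and Cldn10 between the α and β levels (γ to β ratio 3.55, 1.97 to 6.25), unlike medullary γ nuclei, and its name holds only for the rule.

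The 4 genes lie on different chromosomes, all on the plus strand of GRCm39. Kcnj1 (ENSMUSG00000041248) spans chr9:32283789-32310493, Kcnj10 (ENSMUSG00000044708) spans chr1:172168765-172201652, Kcnj16 (ENSMUSG00000051497) spans chr11:110858843-110927617 and Kcnj15 (ENSMUSG00000062609) spans chr16:95058417-95101119. Each has another family member as its nearest Kir gene: Kcnj5 at 28098 bp from Kcnj1, Kcnj9 at 5197 bp from Kcnj10, Kcnj2 at 29364 bp from Kcnj16 and Kcnj6 at 259805 bp from Kcnj15. Annotated antisense genes overlap Kcnj10 and Kcnj15. The promoter windows of Kcnj10 and of the most upstream Kcnj16 start, from 250 bases before to 50 bases after the start, are shown because the 2 genes encode subunits of a shared channel and differed in class pattern. The sequences are from RefSeq (GRCm38.p6) and matched GRCm39 exactly and once, at chr1:172168527-172168826 and chr11:110858609-110858908, plus strand. Capitals mark GGGCGG (GC box) in the Kcnj10 window, and GTTAAT and GTTAAC (HNF1 half-sites) and AAGGTCA (estrogen-related receptor) in the Kcnj16 window, on either strand.
Kcnj10 promoter: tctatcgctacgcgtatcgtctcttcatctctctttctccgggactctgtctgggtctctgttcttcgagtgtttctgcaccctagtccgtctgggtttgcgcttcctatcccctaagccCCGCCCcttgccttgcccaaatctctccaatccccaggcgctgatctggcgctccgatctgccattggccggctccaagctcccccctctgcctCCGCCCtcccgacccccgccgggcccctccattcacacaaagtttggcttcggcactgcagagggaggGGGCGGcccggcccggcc
Kcnj16 promoter: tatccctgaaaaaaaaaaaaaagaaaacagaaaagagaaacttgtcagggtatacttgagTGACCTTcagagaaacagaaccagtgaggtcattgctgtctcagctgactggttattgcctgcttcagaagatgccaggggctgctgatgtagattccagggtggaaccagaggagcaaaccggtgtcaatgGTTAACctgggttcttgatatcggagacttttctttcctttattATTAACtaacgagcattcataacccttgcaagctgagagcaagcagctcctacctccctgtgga
The Kcnj10 window had 63.7% G and C bases, 21 CpG dinucleotides and 3 GC boxes, and the Kcnj16 window had 44.3%, 3 CpG and no GC box, although another of the 4 Kcnj16 start windows held 1. Of 32851 promoter windows of the same length, 35.7% held a GC box, 7.10% GTTAAT, 3.05% GTTAAC and 4.72% AAGGTCA. These letters are a description of the windows, and no binding was measured.

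Kcnj1 was counted in every class and both libraries, most in α nuclei. In cortex its level was 509.7 CPM (494 to 526) in α, 390.3 (374 to 408) in β, 366 (326 to 410) in γ and 384 (355 to 415) in MD nuclei. In medulla it was 694 CPM (677 to 711) in α, 513 (480 to 547) in β, 646 (630 to 663) in γ and 253 (182 to 342, 42 counts) in MD nuclei. The α level was above every other class of its library, and the β, MD and γ levels of cortex were neighbours whose intervals overlapped. Over both libraries the order was medullary α, γ and β, then cortical α, β, MD and γ, then medullary MD nuclei. Medullary β and cortical α nuclei did not differ beyond their intervals, nor did any neighbours from cortical β downwards. The β to α ratio came to 0.766 (0.726 to 0.808) in the cortex library and 0.739 (0.689 to 0.792) in the medulla library. Without the barcodes carrying other-cell markers the cortical levels were 604, 497, 465 and 431 CPM and the ratio was 0.823 (0.772 to 0.876), still below 1. The γ to α ratio was 0.718 (0.637 to 0.807) in cortex but 0.931 (0.898 to 0.964) in medulla, where γ nuclei had 1.26 times (1.17 to 1.35) the β level. The MD to α ratio came to 0.753 (0.692 to 0.819) in the cortex library and 0.365 (0.262 to 0.493) in the medulla library. When each deposited cluster took its most frequent class, the cortical β to α ratio became 1.06. In that setting, 2 cortical clusters in which every barcode carried proximal tubule markers were taken as α, their most frequent class.

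At least 1 Kcnj1 count was found in 68.1% of cortical α, 67.4% of β, 66.1% of γ and 53.3% of MD nuclei. The medullary shares were 75.7%, 70.2%, 74.0% and 41.0%. After thinning every nucleus to 1000 counts the shares were 40.5%, 33.5%, 27.8% and 30.8% in cortex and 48.5%, 37.8%, 46.8% and 26.9% in medulla. As a background, barcodes with at most 2 Slc12a1 counts and at least 5 proximal tubule marker counts held Kcnj1 in 5 of 86 cases in cortex (5.81%, median depth 3488) and in 1 of 97 in medulla (1.03%, median depth 4590). Every TAL class was therefore far above the share in proximal tubule barcodes, although median depths of the classes were lower, at 1883 to 2780 counts.

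**Figure D1:**
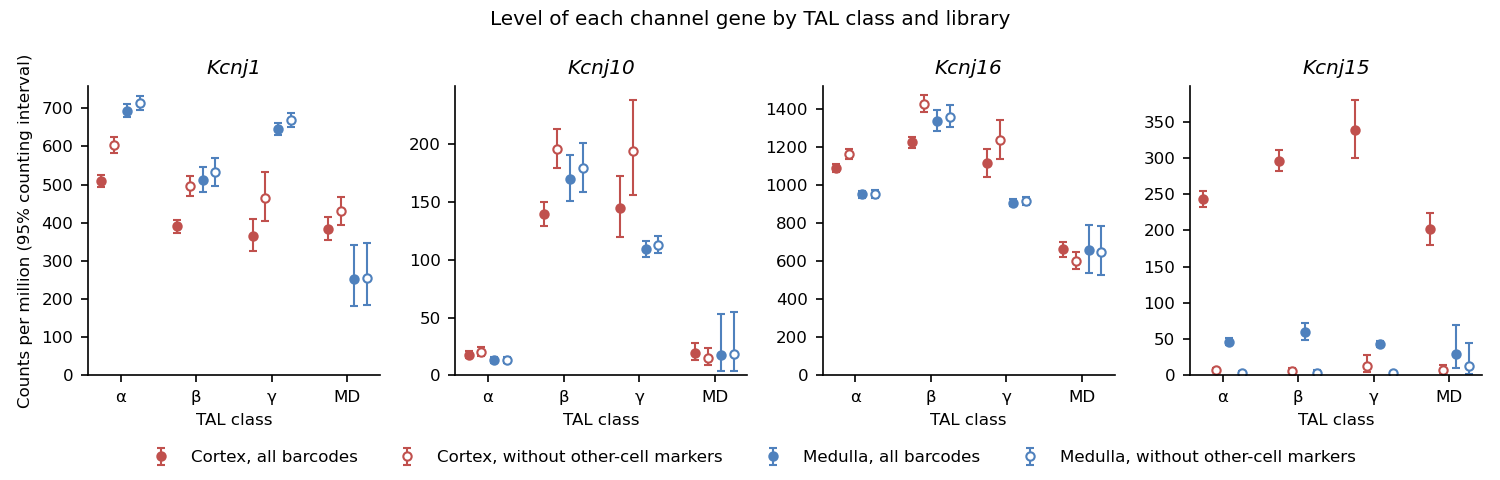
CPM of each channel gene (vertical axes, 95% counting intervals) in the 4 TAL classes (horizontal axes) of the cortex and medulla libraries, with all barcodes (filled) and without barcodes that carry other-cell markers (open). Kcnj10 stands between 109 and 196 CPM in β and γ and at or below 20.4 CPM in α and MD, and the Kcnj15 level of every class falls to 13.1 CPM or less in the open points.

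Kcnj10 separated the classes by far more than Kcnj1 and Kcnj16. The study named its types partly by Kir4.1, with TAL-α negative and TAL-β and TAL-γ positive for it. The rule used no Kcnj10 count, but its classes stand for those types and were chosen with earlier results known. The Kcnj10 difference is thus a description of the classes and no independent result. Its level was 139 CPM (129 to 150, 727 counts) in cortical β and 144 (119 to 173, 119 counts) in cortical γ nuclei, against 17.8 (15.0 to 21.01, 142 counts) in α and 19.8 (13.6 to 27.8, 33 counts) in MD nuclei. In medulla it was 169.6 CPM (151 to 190, 298 counts) in β and 109 (102 to 116, 987 counts) in γ nuclei, against 13.2 (10.997 to 15.8, 124 counts) in α and 18.1 (3.73 to 52.8, 3 counts) in MD nuclei. No α or MD interval reached a β or γ interval in either library. The medullary β, cortical γ and cortical β levels were neighbours with overlapping intervals, medullary γ nuclei followed below them, and the 4 lowest levels overlapped each other in turn. The β to α ratio came to 7.80 (6.51 to 9.40) in the cortex library and 12.8 (10.4 to 15.95) in the medulla library, and the γ to α ratio was 8.09 (6.29 to 10.4) and 8.24 (6.83 to 10.0). Without other-cell barcodes the cortical β level was 196 CPM and its ratio to α 9.59 (7.83 to 11.8). Between libraries, the β level was 1.22 times (1.06 to 1.40) higher in medulla with all barcodes and 0.915 times (0.790 to 1.06) without the other-cell barcodes, so that no direction can be read. Kcnj10 was lower in medulla either way in α nuclei, at 0.742 times (0.578 to 0.9504) the cortical level with all barcodes and 0.6596 times (0.506 to 0.859) without those barcodes. In γ nuclei the ratio was 0.756 (0.624 to 0.922) and 0.583 (0.469 to 0.733), but the γ classes of the libraries were unlike groups of nuclei. In medulla, 94.7% of the γ counts of Kcnj10 lay in the 64.0% of γ nuclei with a Tmem207 count. A smaller share of cortical γ nuclei lacked Tmem207, and their Cldn16 was near the β level. No regional fall of Kcnj10 within 1 kind of nucleus is read from the α or γ ratio.

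Kcnj10 was found in 35.2% of cortical β and 34.3% of γ nuclei and in 35.9% and 20.3% of the medullary ones. It was found in 3.90% of cortical α (median depth 2425) and 3.22% of MD nuclei (median depth 1883). The proximal tubule barcodes of the cortex held it in 4.65% (4 of 86, median depth 3488). Thinned to 1000 counts, the shares were 1.70% in α, 1.23% in MD and 2.33% in those proximal tubule barcodes. The shares in cortical α and MD nuclei were thus not above the share in barcodes of another cell type, and are not read as expression of the classes as a whole. In medulla, α nuclei had 2.49% and proximal tubule barcodes 1.03% (1 of 97, 0.0261 to 5.61%), which does not tell them apart.

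The counts of Kcnj10 inside the α class came mostly from nuclei with at least 1 count of a class marker (Tmem52b, Tmem207, Gpc5, Nos1 or Pappa2). Of the 2824 cortical α nuclei, 2083 had no count of any class marker and held Kcnj10 at 7.16 CPM (5.16 to 9.67, 42 counts). The other 741, with marker counts below the limits, held it at 47.7 CPM (38.8 to 58.0, 100 counts), 6.66 times (4.60 to 9.79) more. In medulla the same split gave 4.95 CPM (36 counts in 2914 nuclei) and 41.8 CPM (88 counts in 862 nuclei). With α restricted to nuclei without any marker count, the β to α ratio was 19.4 in cortex and 34.3 in medulla. Because a class is a range of counts, nuclei near its limits matter here: there were 306 cortical and 93 medullary α nuclei with 1 Tmem52b count, and 331 and 205 β nuclei with exactly 2. For the γ limit, 248 cortical and 748 medullary α nuclei had 1 count of Tmem207 or Gpc5, and 73 and 501 γ nuclei had exactly 2.

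MD nuclei gave the same picture. In cortex, 84 of the 653 MD nuclei also met the β or γ limit, and these held 30 of the 33 Kcnj10 counts of the class, at 76.3 CPM (51.4 to 109). The other 569 held 3 counts, or 2.35 CPM (0.486 to 6.88). In medulla, 64 MD nuclei that met no other limit held 0 counts of Kcnj10, where a limit of 3 counts corresponds to 23.3 CPM. The 21 cortical MD nuclei with Kcnj10 had a median depth of 5278 counts, against 1865 in the 632 without it. The MD to α ratio of Kcnj10 in cortex was 1.11 (0.736 to 1.63) in all barcodes, 0.439 with Scrublet doublets removed, 0.132 without nuclei that met more than 1 limit and 2.76 against α nuclei without any marker count. It therefore depends on how the few double-positive nuclei are treated and on which nuclei count as α. In the deposited cluster that holds most MD nuclei, Kcnj10 stood at 1.55 CPM in cortex and had 0 counts in medulla.

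The γ class of the medulla was split, after its values were seen, by the 2 genes that define it. The 2266 nuclei with a Tmem207 count had 159 CPM (149 to 169) of Kcnj10, and the 1276 nuclei with Gpc5 counts and no Tmem207 count had 16.4 CPM (12.2 to 21.5, 52 counts). The ratio between them was 9.70 (7.33 to 13.1), and 94.7% of the class's Kcnj10 counts lay in the 64.0% of its nuclei that had Tmem207. Relative to α nuclei, Kcnj10 was 12.0 times (9.96 to 14.6) higher with Tmem207 and 1.24 times (0.879 to 1.73) with Gpc5 alone. Kcnj1 ran the other way and by less, at 604 CPM (584 to 624) with Tmem207 and 724 CPM (695 to 755) without it. Kcnj16 stood at 960.2 CPM (935 to 986) and 813 CPM (782 to 845). Nuclei with Gpc5 and no Tmem207 were therefore not separated by Kcnj10 from the α class taken as a whole. Their level was above that given earlier for medullary α nuclei without any class marker count. In Kcnj16 they stood 0.855 times (0.818 to 0.893) as high as the α class. In cortex only 45 γ nuclei lacked Tmem207, too few for this comparison.

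Bins of the marker counts showed where the difference arose. Without MD nuclei and other-cell barcodes, cortical Kcnj10 stood at 16.4 CPM with 0 Tmem52b counts, 158 with 1, 189 with 2, 201 with 3 and between 186 and 203 above that. The step lay between 0 and 1 count, and from 2 counts on the level did not follow Tmem52b beyond the intervals. Among medullary α and γ nuclei without Gpc5, Kcnj10 stood at 6.40 CPM with 0 Tmem207 counts, 150.1 with 1, 259 with 2, 162 with 3 or 4 and 191 with 5 or more. Among those without Tmem207 it stood at 6.40, 16.6, 22.5, 13.8 and 17.1 CPM over the same bins of Gpc5. Kcnj1 in medulla stood at 711, 668, 580.3, 541 and 623 CPM over the Tmem207 bins and at 711, 736, 760.2, 788 and 709 CPM over the Gpc5 bins.

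**Figure D2:**
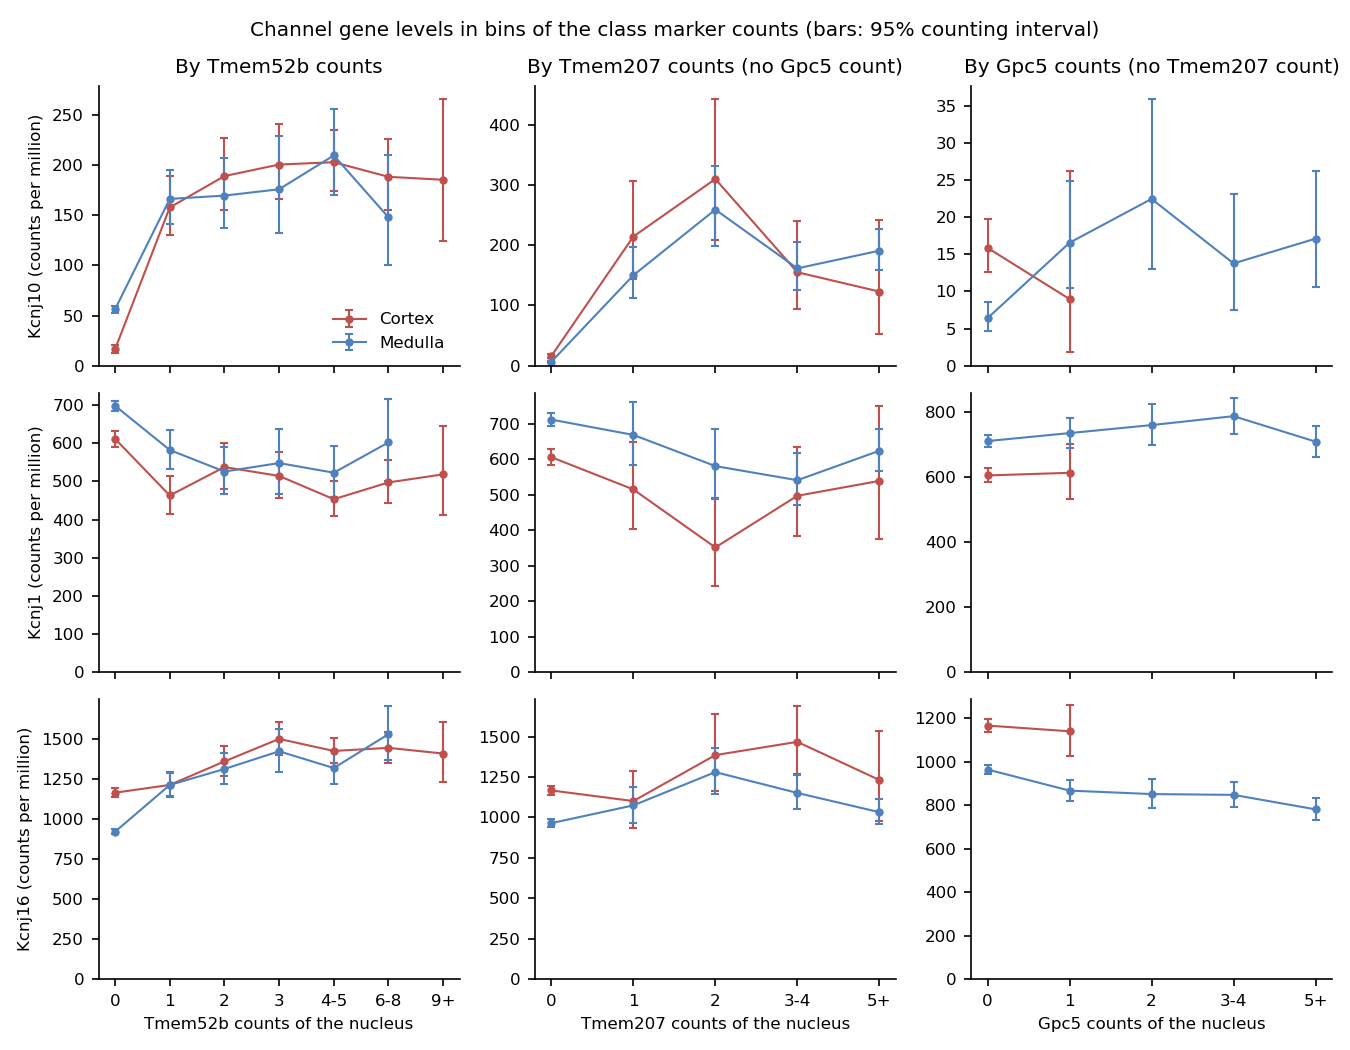
CPM (vertical axes, 95% counting intervals) of Kcnj10, Kcnj1 and Kcnj16 in bins of the Tmem52b, Tmem207 and Gpc5 counts of the nucleus (horizontal axes) in cortex and medulla, for bins of at least 20 nuclei. Kcnj10 steps up at the first Tmem52b or Tmem207 count and stays under 23 CPM at every Gpc5 count.

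Kcnj16, the Kir5.1 subunit, was counted in most nuclei of every class and was highest in β nuclei. In cortex it stood at 1089 CPM (1066 to 1112) in α, 1225 (1195 to 1255) in β, 1114 (1043 to 1188) in γ and 663 (624 to 703) in MD nuclei. In medulla it stood at 951 CPM (931 to 971) in α, 1337 (1284 to 1392) in β, 909 (889 to 928) in γ and 657 (539 to 792) in MD nuclei. The β to α ratio came to 1.12 (1.09 to 1.16) in the cortex library and 1.41 (1.34 to 1.47) in the medulla library, and without other-cell barcodes it was 1.23 (1.18 to 1.28) and 1.43 (1.36 to 1.496). The MD class was lowest in both libraries, with MD to α ratios of 0.608 (0.571 to 0.648) and 0.690 (0.566 to 0.834), and without other-cell barcodes 0.519 (0.480 to 0.5595) and 0.680 (0.555 to 0.825). In descending order the levels ran from medullary β and cortical β over cortical γ and α, medullary α and γ to the MD nuclei of both libraries, and only the cortical γ and α levels and the MD levels overlapped with their neighbours. Medullary γ nuclei stood close to α at a ratio of 0.955 (0.927 to 0.984), and this ratio reached 1.012 when γ was asked before β. At least 1 count was present in 87.8%, 94.8%, 89.9% and 62.6% of cortical α, β, γ and MD nuclei and in 81.6%, 94.6%, 81.8% and 61.5% of the medullary ones. Proximal tubule barcodes held Kcnj16 in 88.4% and 88.7% of cases and express the gene themselves, so they are no background for it. Among barcodes with at most 2 Slc12a1 counts, at most 6 per library had at least 5 endothelial marker counts.

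Both subunits of the basolateral channel were thus higher in β than in α nuclei of either library, but by very different factors. In medullary γ nuclei Kcnj10 was above the α level and Kcnj16 close to it. Kcnj10 made up 10.2% of the summed Kcnj10 and Kcnj16 counts in cortical β and 11.3% in medullary β nuclei, but 1.61% and 1.37% in α nuclei. Between α and β, Kcnj16 moved by 1.12 and 1.41 times where Kcnj10 moved by 7.80 and 12.8 times. Against the apical channel, Kcnj10 made up 3.38% of the summed Kcnj10 and Kcnj1 counts in cortical α, 26.3% in β, 28.3% in γ and 4.90% in MD nuclei. The same shares in medulla were 1.87%, 24.9%, 14.4% and 6.67%. These are shares of counts and not of channel molecules, since 3′ counts of different genes are not on a shared scale.

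Kcnj15, the Kir4.2 subunit, followed the proximal tubule markers and not the TAL classes. With all barcodes it stood at 243 CPM in cortical α, 296 in β, 338 in γ and 201 in MD nuclei, and at 46.8, 59.8, 43.5 and 30.1 CPM in medulla. Cortex was higher than medulla by 5.20 times (4.68 to 5.78) in α, 4.96 times in β, 7.77 times in γ and 6.69 times in MD nuclei. Without barcodes carrying other-cell markers, the cortical levels were 8.16 (46 counts), 6.79 (19), 13.1 (6) and 7.30 (9) CPM and the medullary levels 4.04 (36), 3.77 (6), 3.76 (32) and 12.5 (2) CPM. Of 4103 Kcnj15 counts in cortical TAL barcodes, 80 were left. In cortex, TAL barcodes with 0 proximal marker counts had 7.14 CPM of Kcnj15, those with 1 or 2 had 17.0, those with 3 to 5 had 101.3, those with 6 to 20 had 481 and those with 21 to 100 had 932 CPM. In medulla the series was 3.62, 8.39, 52.2, 588 and 986 CPM. Proximal tubule barcodes with at most 2 Slc12a1 counts had 1389 CPM in cortex and 1193 CPM in medulla. A level in TAL cells themselves was not separable from this background at the depth of these libraries.

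In cortex, the other members were lower in the barcodes with more than 5 proximal counts, taken over all TAL classes. Over the bins of 0, 1 to 2, 3 to 5, 6 to 20 and 21 to 100 proximal counts, cortical Kcnj1 stood at 541, 519.7, 503, 289.9 and 233 CPM. Kcnj10 stood at 78.7, 71.5, 83.8, 62.8 and 32.4 CPM and Kcnj16 at 1158, 1130.1, 1044, 989 and 945 CPM. Kcnj1 and Kcnj10 thus differed by larger factors than Kcnj16, which proximal tubule barcodes express themselves. Within cortical MD nuclei Kcnj16 went the other way, at 839 CPM in 49 barcodes with proximal markers and 611 CPM in the rest. The 780 cortical TAL barcodes with proximal markers had a median of 5636 counts, against 2300 in the others. Scrublet, a doublet caller, marked 137 of these 780.

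**Figure D3:**
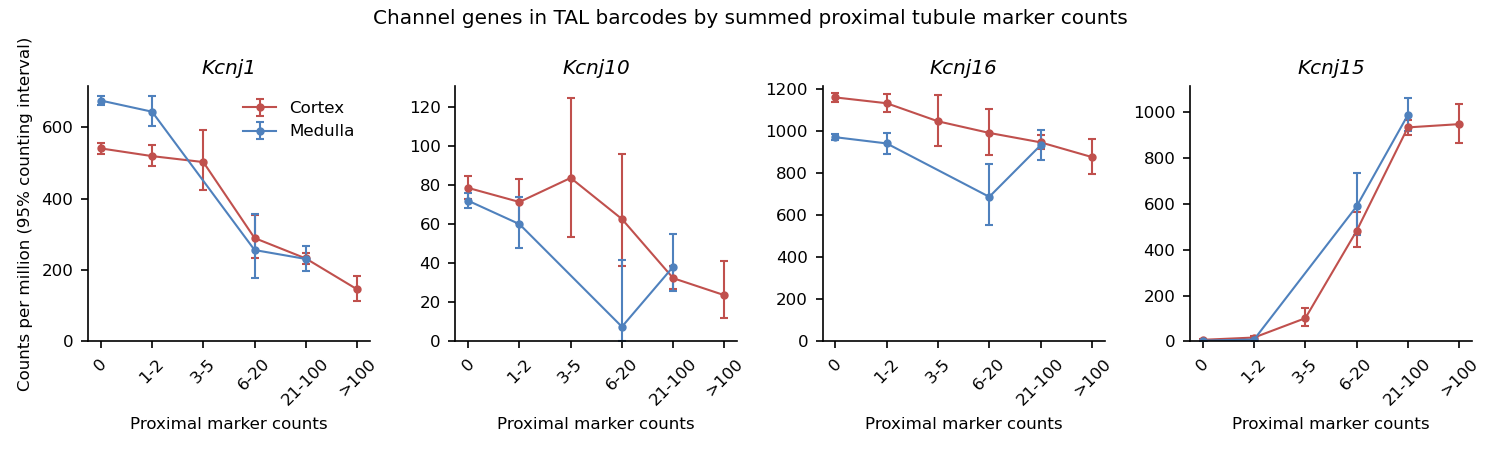
CPM (vertical axes, 95% counting intervals) of the 4 genes in TAL barcodes grouped by their summed counts of 6 proximal tubule markers (horizontal axes), in cortex and medulla, for bins of at least 20 barcodes. Kcnj15 climbs from 7.14 to 946 CPM in cortex while Kcnj1 falls from 541 to 146 CPM.

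Within a class, the counts per nucleus were compared with those of a class in which every nucleus has the same level, scaled to its own depth. Kcnj10 in cortical β nuclei was present in 35.2% of nuclei where a single level would give 35.5%, with 373 nuclei at 1 count, 113 at 2 and 39 at 3 or more. In medullary β nuclei the shares were 35.9% and 39.4%. The variance of the cortical β counts was 1.51 times that of a single level, and 1.19 times without other-cell barcodes, where 36.2% were positive against 38.6%. In medullary γ nuclei 20.3% were positive against 23.9%. Kcnj16 was present in 62.6% of cortical MD nuclei against 73.9% for a single level, and in 61.5% against 73.0% of the medullary ones. Its variance over that expected was 1.61 and 1.42, however, which is within or below the 1.48 to 1.86 of the other classes. For Kcnj1 in α nuclei, 68.1% were positive in the cortex library against 71.9%, and 75.7% in the medulla library against 79.8%. Kcnj15 was concentrated in few barcodes, with 13.2% of cortical α nuclei positive against 47.2%, and this gap closed to 1.86% against 1.93% without other-cell barcodes.

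Pairs of the 4 genes were counted in the same nucleus and compared with the product of their separate shares, summed over 10 bins of depth. Kcnj10 and Kcnj16, which form a channel together, were both present in 507 cortical β nuclei (34.0%, against 33.6% from the product), 194 medullary β nuclei (34.0% against 34.2%) and 614 medullary γ nuclei (17.3% against 16.9%). Kcnj16 was found in 96.6% of cortical β nuclei with Kcnj10 and in 93.9% of those without it. Because nearly every β nucleus held Kcnj16, this pair could not exceed the product by much. Kcnj1 and Kcnj10, the apical and the basolateral subunit, were both present in 383 cortical β nuclei (25.7% against 24.0%), 150 medullary β nuclei (26.3% against 25.6%) and 549 medullary γ nuclei (15.5% against 15.3%). The observed to expected ratio of this pair was 1.07 (0.963 to 1.18), 1.03 (0.869 to 1.20) and 1.013 (0.9298 to 1.10). By these intervals, neither a shortage nor an excess of nuclei with both transcripts was seen within these classes. They take the expected number as fixed, although it comes from the same nuclei, so a small excess or shortage is not excluded. Kcnj1 and Kcnj16 were both present in 60.5% of cortical α, 63.8% of β, 59.7% of γ and 33.4% of MD nuclei, and the product gave 60.4%, 64.3%, 60.6% and 35.0%. In medulla they were both present in 62.0% of α, 67.1% of β, 61.0% of γ and 25.6% of MD nuclei. The level of Kcnj16 in cortical β nuclei with Kcnj10 was 1.078 times (1.03 to 1.13) that of β nuclei without it, and the ratio in medullary β nuclei was 0.982 (0.902 to 1.07). In medullary γ nuclei it was 1.079 (1.02 to 1.14), but 1.03 (0.967 to 1.09) within the γ nuclei that held Tmem207 and no other-cell markers. The same ratio for Kcnj1 was 0.984 (0.899 to 1.077) in cortical β and 1.14 (0.994 to 1.30) in medullary β nuclei. The latter became 1.19 (1.03 to 1.36) without other-cell barcodes. For Kcnj1 in medullary γ nuclei it was 0.918 (0.861 to 0.979), but 1.03 (0.957 to 1.105) with Tmem207 and no other-cell markers. In medullary α nuclei the Kcnj1 ratio was 0.829 (0.693 to 0.985), and 0.869 (0.725 to 1.03) without other-cell barcodes.

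Over all 6 pairs, 4 classes and 2 libraries, 47 of 48 intervals of the observed to expected ratio included 1. Of the 48, only 28 had at least 50 nuclei with both genes, and their ratios ran from 0.794 to 1.07. The intervals rest on the number of nuclei with both genes and take the expected number, drawn from the same nuclei, as fixed. An interval that includes 1 therefore does not show that 2 genes are unrelated. It says least where few nuclei held both, or where a gene was present in nearly every nucleus. The exception was Kcnj10 with Kcnj15 in cortical β nuclei, at 0.794 (0.631 to 0.987, 81 nuclei), and without other-cell barcodes it was 0.733 (0.238 to 1.71). Pooled over all TAL nuclei, Kcnj1 and Kcnj10 were both present in 528 cortical nuclei, 1.03 times (0.945 to 1.12) the product over depth bins, and in 760 medullary nuclei, 0.987 times (0.918 to 1.06). Kcnj1, Kcnj10 and Kcnj16 were all present in 368 cortical β nuclei (24.6%), 142 medullary β (24.9%), 473 medullary γ (13.4%), 66 cortical α (2.34%) and 49 medullary α nuclei (1.30%). None of the 3 was counted in 17.5% of cortical and 23.1% of medullary MD nuclei, against 4.50% and 4.53% of α and 1.34% and 1.75% of β nuclei. MD nuclei were also the shallowest class in each library.

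**Figure D4:**
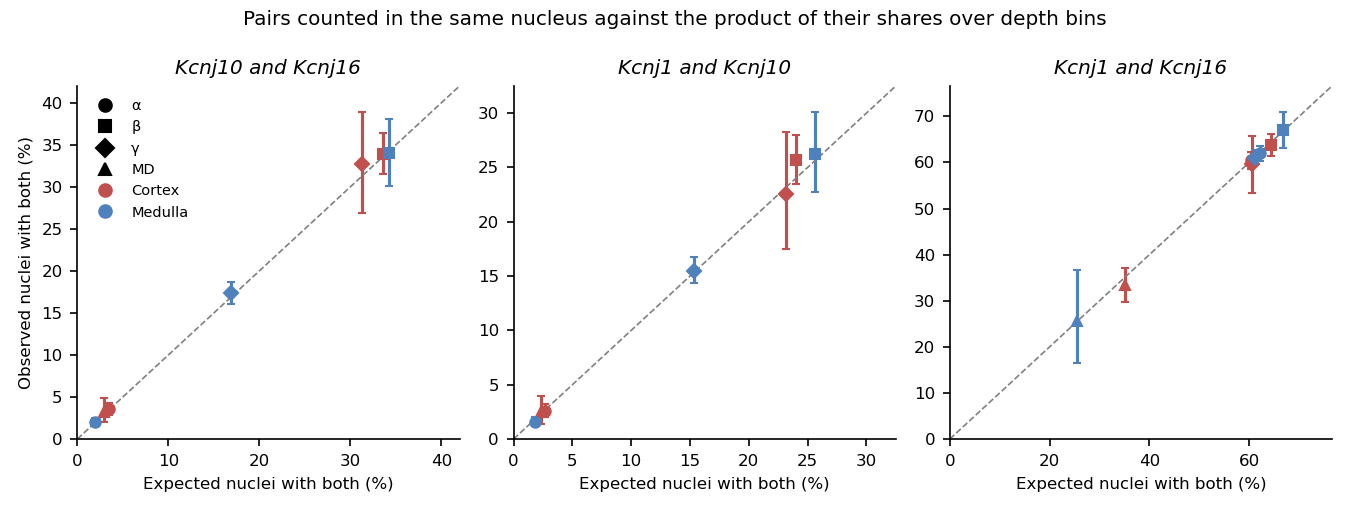
Share of nuclei with a count of both genes (vertical axes, 95% Clopper-Pearson intervals) against the share expected from the product over depth bins (horizontal axes), for 3 pairs, with the class as symbol and the library as colour, where at least 10 nuclei held both. The points lie along the dashed line of equality, and every interval of the observed to expected ratio for these pairs includes 1.

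The position of a nucleus between cortex and medulla was scored as the share of medulla-side counts among 13 cortex-side genes (such as Pde10a, Sfrp1 and Thsd4) and 13 medulla-side genes (such as Ranbp3l, Enpp2 and Pcsk6), for nuclei with at least 5 such counts. The study chose these genes on the same samples, so the score is not independent of the libraries. Values are without other-cell barcodes. In the medulla library, Kcnj1 in α nuclei stood at 628 CPM on the cortex side (share under 1/3), 620.0 between and 753 CPM on the medulla side (share over 2/3). In β nuclei it stood at 429, 492 and 634 CPM, a medulla to cortex side ratio of 1.48 (1.24 to 1.77). Kcnj16 ran the other way in α nuclei, with 1192, 1178 and 854 CPM and a ratio of 0.716 (0.671 to 0.766), while in β nuclei it stood at 1357, 1424 and 1310.3 CPM and a ratio of 0.965 (0.868 to 1.07). Medullary γ nuclei had 1462 CPM of Kcnj16 between and 896 CPM on the medulla side, and 575 and 673 CPM of Kcnj1. Kcnj10 in β nuclei stood at 198, 176 and 168 CPM, with overlapping intervals and a ratio of 0.848 (0.633 to 1.14). In the cortex library, Kcnj16 in α nuclei again stood at 1196, 1128 and 1010.5 CPM, and Kcnj1 at 601, 598 and 657 CPM with a ratio of 1.09 (0.952 to 1.25).

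With all barcodes, Kcnj1 was higher in the medulla library by 1.36 times (1.31 to 1.42) in α, 1.31 times (1.21 to 1.42) in β and 1.76 times (1.57 to 1.99) in γ nuclei. Without other-cell barcodes these ratios were 1.18 (1.13 to 1.23), 1.07 (0.982 to 1.17) and 1.44 (1.25 to 1.65), so that the β difference was no longer outside counting error. Kcnj16 was lower in medullary α and γ nuclei either way, at 0.873 and 0.816 times the cortical level with all barcodes and 0.819 and 0.740 times without those barcodes. The γ classes of the libraries were unlike groups of nuclei, so no regional difference within 1 kind of nucleus is read from the γ ratios. Nuclei of similar score were then compared between the libraries, again without other-cell barcodes. Kcnj1 in α nuclei was 1.05 times (0.951 to 1.15) as high in the medulla as in the cortex library on the cortex side and 1.04 times (0.952 to 1.13) between. On the medulla side it was 1.15 times (1.01 to 1.31) higher. Kcnj16 in α nuclei was 0.997 times (0.931 to 1.07) as high on the cortex side, 1.04 times (0.981 to 1.11) between and 0.845 times (0.760 to 0.942) on the medulla side. For β nuclei the medulla to cortex ratio on the cortex side was 0.893 (0.760 to 1.04) for Kcnj1, 1.04 (0.818 to 1.32) for Kcnj10 and 0.939 (0.859 to 1.03) for Kcnj16. In MD nuclei on the cortex side Kcnj1 stood at 216 CPM in medulla (24 counts) and 431 CPM in cortex, a ratio of 0.501 (0.317 to 0.756).

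**Figure D5:**
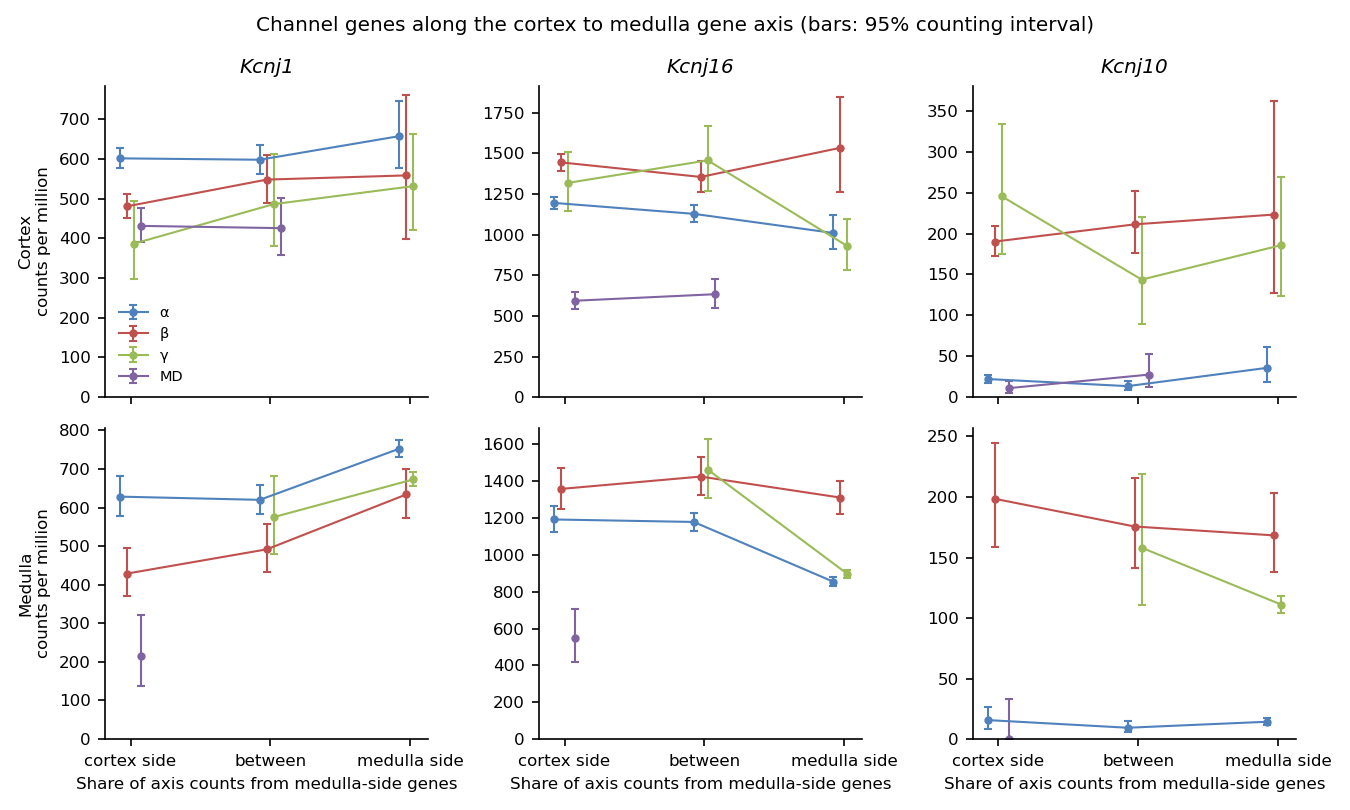
CPM (vertical axes, 95% counting intervals) of Kcnj1, Kcnj16 and Kcnj10 in 3 bins of the medulla-side share (horizontal axes), by class (colour) in the cortex (top) and medulla (bottom) libraries, without barcodes carrying other-cell markers, for bins of at least 20 nuclei. In the medulla library Kcnj1 is higher on the medulla side in α and β nuclei, Kcnj16 is lower there in α and γ nuclei, and the Kcnj10 intervals of β nuclei overlap. Kcnj1 in γ nuclei stands at 575 CPM between and 673 CPM on the medulla side, and this difference was not tested.

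The rest of the Kir family was hardly counted. Of 15 Kcnj genes, 4 reached the minimum of 50 counts over cortical β and α nuclei, the members themselves, and 5 over cortical MD and α nuclei, with Kcnj3 (Kir3.1, a G protein-gated subunit) added. A gene was called where its level differed by at least 1.5-fold. In the β to α comparison of cortex, 5.44% of 12244 genes were called higher and 4.15% lower, and of the family Kcnj10 alone was called. In medulla 6.97% of 11129 genes were called higher and 7.95% lower, and again Kcnj10 alone. In the γ to α comparison of medulla, where 2.52% were called higher and 5.27% lower, Kcnj10 was the called member as well. Kcnj3 was higher in cortical MD than α nuclei, at 26.4 against 3.39 CPM, a ratio of 7.78 (4.71 to 13.1), where 12.1% of 11465 genes were called higher and 12.3% lower, and Kcnj16 was the family gene called lower there. With a fold of 2, the shares called higher and lower were 1.76% and 1.4% in β to α of cortex, 1.94% and 2.92% in β to α of medulla, and 4.89% and 4.84% in MD to α of cortex, and Kcnj10 remained the called member in both β comparisons. With a minimum of 20 counts, where 8.18% and 6.3% of genes were called in cortex and 9.7% and 11% in medulla, Kcnj6 was called lower in β nuclei beside Kcnj10.

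Among 18 genes known to regulate ROMK or the Kir4.1/Kir5.1 channel, 4 were called higher and 4 lower in cortical β against α nuclei, and 10 neither. Over all genes, 5.44% were called higher and 4.15% lower. Wnk1, a kinase that acts on ROMK at the membrane and on NKCC2, stood at 2351 against 898 CPM (ratio 2.62, 2.54 to 2.70). Casr, the calcium-sensing receptor, stood at 1311 against 835 CPM (1.57, 1.52 to 1.62). Wnk4 and Stk39, which encode WNK4 and the kinase SPAK, were lower at ratios of 0.607 (0.574 to 0.642) and 0.657 (0.630 to 0.684). Without other-cell barcodes, 4.93% of 10588 genes were called higher and 6.88% lower. In that setting Wnk1, Casr and Wnk4 kept their calls, and Stk39 at 0.675 (0.642 to 0.7096) did not. Cav1, also among the 4 called higher, stood at 54 against 9 counts (10.3 against 1.13 CPM) with all barcodes. Only 4 Cav1 counts were left over all cortical TAL nuclei without other-cell barcodes, too few for a call. The Cav1 call thus rests on other-cell barcodes, and the tally of 4 higher includes it. Slc9a3r2, among the 4 called lower, stood at 15 against 35 counts. Without other-cell barcodes it had 3 against 15 counts, too few for a call. In medulla, where 6.97% of genes were called higher and 7.95% lower, 15 of the 18 were counted enough. Of these, 3 were called higher and 2 lower, with Wnk1 at 2575 against 495 CPM (5.20, 4.99 to 5.42) and Casr at 1362 against 557 CPM (2.45, 2.33 to 2.57). Sgk1 was also called higher, on 15 against 49 counts. Without other-cell barcodes, 50 Sgk1 counts were left over all medullary TAL nuclei, 26 of them in α nuclei. That left too few in β and α nuclei for a call. The 2 called lower were Stk39, at 836 against 1265 CPM, and Mpdz, at 12.5 against 27.6 CPM. Wnk4 stood at 409 against 552 CPM and was not called in medulla. In the γ to α comparison of medulla, where 2.52% of genes were called higher and 5.27% lower, none of 15 was called. In cortical MD against α nuclei, where 12.1% of genes were called higher and 12.3% lower, 2 of 16 were called higher and 4 lower. The share called higher was near that over all genes. Umod (uromodulin) stood at 718 against 3804 CPM. The study examined several of these genes on these libraries, so their counts are no independent evidence of a direction.

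Of 12 genes that carry out salt transport beside these channels, 1 was called higher and 1 lower in cortical β against α nuclei, Cldn16 and Cldn10. Without other-cell barcodes 3 were called higher (Slc9a3, Cldn16 and Cldn19) and Cldn10 lower. Over all genes, 5.44% were called higher and 4.15% lower with all barcodes, and 4.93% and 6.88% without the other-cell ones. In medulla 4 were higher and 1 lower, where 6.97% of all genes were called higher and 7.95% lower. Fxyd2, a sodium pump subunit, stood at 2412 CPM in medullary β and 1546 in α nuclei. In cortical MD against α nuclei, 9 of the 12 were called lower, among them Bsnd (barttin) and Atp1b1 (a sodium pump subunit). Slc9a2, a sodium-proton exchanger, was higher there at 404 against 176 CPM. Over all genes, 12.1% were called higher and 12.3% lower in this comparison.

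Genes with the most similar pattern were ranked by the root mean square difference of centred log2(CPM + 1) values over the 8 groups of class and library, among 8260 genes. For Kcnj10 these were Itpr2, an IP3 receptor of the endoplasmic reticulum, at a difference of 0.52, then Il1rap, D630024D03Rik, Gabarapl1 and Lrmda at 0.62 to 0.79. Without other-cell barcodes the same 5 genes were nearest, with Itpr2 at 0.23, where it stood at 553 CPM in cortical β against 54.5 in α nuclei. For Kcnj1 they included Ndufaf7, Capza1, Becn1 and Skap2 at 0.10 to 0.13, and for Kcnj16 they were Ldhb, Eif2ak3, Rab3ip, Mcur1 and Rmnd1 at 0.08 to 0.11. Without other-cell barcodes, 2 of the 5 nearest genes were shared with these lists for Kcnj1 and 2 for Kcnj16. For Kcnj15 they were Slc17a1, Nat8f3, Ildr2, Bnc2 and Miox at 0.06 to 0.15, with none of these 5 left among the nearest once other-cell barcodes were removed. The groups share 2 libraries and differ in size, and the likeness of levels is a description over 8 values.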

How the data were processed

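Nuclei were sorted for GFP and captured with the PIPseq T10 3′ kit, with 17000 nuclei loaded per library. The authors ran PIPseeker for alignment to GRCm39 and for counting, and the deposited matrices hold raw counts per gene and barcode, before doublet removal, ambient correction or normalization. The deposited cluster tables hold a PIPseeker cluster number per barcode, 1 of 13, which was used as an alternative source of classes. The submitters' processing notes also name bcl2fastq and Seurat 4.4.0. Whether reads were assigned by strand is not stated, so reads of antisense genes that overlap Kcnj10 and Kcnj15 cannot be told apart.

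Filtered matrices of both libraries were read in Python 3.11.15 (numpy 2.4.6, scipy 1.17.1, pandas 2.3.3, scanpy 1.11.5). Gene identifiers of the members matched the GENCODE annotation of GRCm39. Counts were summed per class and library and divided by the total counts of the same nuclei (CPM). No filter on quality or doublets was applied to the values given first. Each was repeated without barcodes that carry at least 3 summed counts of any 1 of 8 lists of other-cell markers (36 genes), without Scrublet doublets (338 in cortex, and 406 in medulla, where the automatic threshold called 2 and the 5% with the highest scores were taken), with other thresholds and class orders, other normalization and thinning to 1000 counts. Comparisons between groups use at least 50 nuclei, and calls at least 50 counts over both groups. The call rule, the ratio intervals and the pair expectation were tested on simulated counts. These were independent Poisson draws, so the tests do not cover the larger variance of the real counts. The width of the pair intervals was not tested. The named genes are the members, the genes of 3 lists (the Kir family, channel regulators and salt transport partners), for each member the 5 genes nearest in pattern, and Cldn10 and Cldn16. The members, lists and class rule were chosen with earlier results of these data known, and the splits of the classes and the bins of marker counts were added after the values were seen. Results of some genes are not reported here.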

Additional observations from a re-analysis of the deposited data

Results flagged for a closer look

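All 4 genes were also counted in barcodes that were not called as nuclei, which the comparisons above do not use. In the cortex library these barcodes held Kcnj1 at 388 CPM, Kcnj10 at 73.3 CPM, Kcnj16 at 964 CPM and Kcnj15 at 268 CPM. In the medulla library they held Kcnj1 at 631 CPM, Kcnj10 at 77.4 CPM, Kcnj16 at 819 CPM and Kcnj15 at 67.5 CPM. They comprised 378589 cortical and 391061 medullary barcodes with 18.2% and 11.2% of all counts, and the levels lie within the range of the TAL classes of the same library, apart from Kcnj15 in medulla. There are no control libraries to set beside them.

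With all barcodes, the γ to β ratio of Kcnj15 came to 1.14 (1.001 to 1.30) in the cortex library and 0.728 (0.586 to 0.912) in the medulla library, on opposite sides of 1, and the difference between the libraries was not tested. Without other-cell barcodes it was 1.92 (0.628 to 5.00) and 0.998 (0.412 to 2.92), and both intervals then include 1.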

How the results depend on the processing

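Alternatives moved the levels of Kcnj10 and Kcnj15 most. Values are ratios, with β to α, γ to α or MD to α meaning the ratio between those classes. For Kcnj10 β to α (7.80 in cortex, 12.8 in medulla), values were 14.6 and 16.04 with a Tmem52b minimum of 1, 4.23 and 9.80 with 4, 9.66 and 26.7 with a Tmem207 and Gpc5 minimum of 1, 5.53 and 7.16 with 4, and 19.4 and 34.3 with α free of class markers. It was 9.59 in cortex without other-cell barcodes and 22.4 in medulla by deposited clusters. For Kcnj10 γ to α in medulla (8.24), values in the same order were 10.2, 6.28, 15.4, 5.20 and 22.0, and 15.0 by deposited clusters, 12.0 for γ with Tmem207 and 1.24 for γ with Gpc5 alone. For Kcnj10 MD to α in cortex (1.11), values were 0.439 without Scrublet doublets, 2.18 and 0.593 with a Tmem52b minimum of 1 and 4, 2.76 with α free of class markers, 0.0809 by deposited clusters, 0.469 as a mean over nuclei and 0.132 without nuclei over more than 1 limit. For Kcnj1, β to α was 0.823 in cortex without other-cell barcodes, 1.06 in cortex by deposited clusters, a reversal, and 0.625 in medulla both when γ was asked before β and without nuclei over more than 1 limit. MD to α was 0.976 in cortex by deposited clusters, and γ to α in medulla was 0.870 with Tmem207 and 1.04, a reversal, with Gpc5 alone. For Kcnj16, β to α in cortex was 1.23 without other-cell barcodes, 1.204 by deposited clusters, 1.199 as a mean over nuclei and 1.21 when thinned, and in medulla 1.54 by deposited clusters and 1.32 both with γ asked first and without nuclei over more than 1 limit. MD to α in cortex was 0.519 without other-cell barcodes, 0.557 without Scrublet doublets, 0.501 by deposited clusters, 0.524 as a mean over nuclei, 0.566 without nuclei over more than 1 limit and 0.499 when thinned. Its γ to α ratio in medulla reversed to 1.0005 by deposited clusters, 1.012 with γ asked first and 1.0096 with Tmem207, and was 0.855 with Gpc5 alone. For Kcnj15, β to α reversed to 0.832 in cortex and 0.933 in medulla without other-cell barcodes, to 0.0375 and 0.0564 by deposited clusters, and to 0.843 in medulla with γ asked first and without nuclei over more than 1 limit, where γ to β reversed to 1.18 and 1.10. In medulla it was 1.63 with a Tmem52b minimum of 1. MD to α of Kcnj15 in cortex was 0.964 and 0.658 with a Nos1 and Pappa2 minimum of 2 and 6, 0.933 with a Slc12a1 minimum of 20, 0.0217 by deposited clusters, 0.615 as a mean over nuclei, 0.671 without nuclei over more than 1 limit and 0.632 when thinned. Its γ to α ratio in medulla was 0.0343 by deposited clusters, 0.808 with Gpc5 alone and 0.786 when thinned. Deposited clusters in which every barcode carries proximal tubule markers were taken as α, the most frequent class in cortex and tied in medulla with γ (58 nuclei each), so the medullary Kcnj15 values by deposited clusters rest on how that tie was settled. Medulla to cortex ratios reversed in β nuclei for Kcnj10, to 0.915 (0.790 to 1.06) without other-cell barcodes. For Kcnj16 in β nuclei they reversed to 0.952 (0.903 to 1.003) without other-cell barcodes and 0.998 (0.917 to 1.09) when thinned. For Kcnj15 in MD nuclei the ratio reversed to 1.71 (0.180 to 8.26, on 2 medullary counts) without other-cell barcodes. A reversal means a ratio on the other side of 1. Only those of β to α by deposited clusters, for Kcnj1 and Kcnj15, had intervals that left out 1. Of the lists, the family had 2 called genes in β to α of both libraries with a minimum of 20 counts. With a fold of 2, regulators had 2 called in β to α and 2 in MD to α of cortex and 3 in β to α of medulla, transport partners 0 in cortex and 2 in medulla, and the family 1 in MD to α of cortex. The shares over all genes in these settings are given with the Kir family above.

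Of 320 alternatives to the values that answer a comparison, 244 gave the same result, 65 moved and 11 reversed. The cause of the other moves was not tested. No library could be left out, because each region has 1, and no paired analysis was possible because the result comes from no test and each region has 1 library. The γ split by Tmem207 was chosen after seeing the data. Depth limits single nuclei: at medians of 2427 and 2430 counts, a nucleus without a count of Kcnj10 is not shown to lack it.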

Other observations

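In barcodes with at most 2 Slc12a1 counts and at least 5 counts of distal convoluted tubule markers, 45 in cortex and 9 in medulla, Kcnj10 stood at 168 CPM (108 to 249.9) and 306 CPM (123 to 631). Kcnj1 stood at 539 CPM (425 to 674) and 613 CPM (335 to 1028) in the same barcodes. Kcnj15 was at 315 CPM in the cortical ones and at 0 counts in the 9 medullary ones.

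Medullary β nuclei that also met the γ limit (359 of 571) had 552 CPM of Kcnj1, 1.27 times (1.10 to 1.48) the level of the other β nuclei, and 154 CPM of Kcnj10, 0.768 times (0.606 to 0.978). In cortex, 475 of 1493 β nuclei met the γ limit, and the corresponding ratios were 0.993 (0.907 to 1.09) for Kcnj1 and 1.20 (1.03 to 1.39) for Kcnj10. Whether position along the limb goes with this split was not tested.

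Other Kir genes with at least 50 counts over all TAL nuclei were Kcnj3 with 96 counts in cortex and 36 in medulla, Kcnj6 with 41 and 43, and Kcnj2 with 32 and 24.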
